A study of Mus musculus with 35 samples.

Results

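The 10 genes described here, Aldh1l1, Sox9, Nfia, Nfib, S100b, Ndrg2, Gpr37l1, Ntsr2, Acsbg1 and Clu, are markers and transcription factors by which astrocytes are recognised. They were taken by gene symbol from a table of 19573 genes, in which all 10 were found, and all 10 passed the filter on low values. The table gives FPKM, fragments counted per kilobase of a gene's transcripts and adjusted for library size, for 35 RNA sequencing libraries of astrocytes sorted from mouse cortex. All mice were aged P30 to P35 (postnatal days) and carried the genotype Aldh1l1egfp, a green fluorescent reporter driven by Aldh1l1, so saline and LPS groups alike were purified through one of the 10 genes. The groups were female mice 3 h after saline (n = 4) or lipopolysaccharide, LPS, at 5 mg/kg (n = 5), and female mice 24 h after saline (n = 5) or LPS (n = 4). Male mice were taken 24 h after saline (n = 5) or LPS (n = 5), and further females 72 h after saline (n = 4) or LPS (n = 3). The design asks how these cells change over the hours after LPS, and whether males and females respond alike at 24 h. No label states that the libraries of a group are from different mice, so the tests weigh library-to-library spread only, which may be technical.

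Astrocytes arise from neural progenitors that stop making neurons and turn to glia, a switch in which the transcription factors SOX9, NFIA and NFIB act together. Mature astrocytes then hold a stable set of enzymes, receptors and secreted proteins that serve as markers of the cell type. In inflamed brain, astrocytes become reactive and raise Gfap, an intermediate filament, which is why a marker that keeps its level under inflammation is useful for sorting and counting them.

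NFI proteins bind as dimers to a palindrome whose arm reads TTGGC, so promoters of members were searched for TTGGC and, as its complement on the other strand, GCCAA. The box motif CCAAT, with its complement ATTGG, was searched as well. RefSeq promoters on GRCm38.p6 were found for 7 of the 10 members, with no entry for Sox9, Nfib and Clu, and the 250 bases before each listed start were read. The 4 shown are those of Aldh1l1, whose promoter names the reporter, of Acsbg1 and Gpr37l1, whose levels followed Aldh1l1 most closely from library to library, and of S100b, with the most TTGGC motifs. Capitals mark every TTGGC or CCAAT motif on either strand, and each sequence reads 5′ to 3′ on the gene's strand.
Aldh1l1, chr6:90550543-90550792, plus strand: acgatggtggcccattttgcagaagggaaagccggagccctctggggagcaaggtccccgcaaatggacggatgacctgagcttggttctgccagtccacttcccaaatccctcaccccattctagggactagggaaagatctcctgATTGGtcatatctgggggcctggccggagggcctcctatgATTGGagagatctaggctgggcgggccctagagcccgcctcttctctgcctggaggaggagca
Acsbg1, chr9:54661886-54662135, minus strand: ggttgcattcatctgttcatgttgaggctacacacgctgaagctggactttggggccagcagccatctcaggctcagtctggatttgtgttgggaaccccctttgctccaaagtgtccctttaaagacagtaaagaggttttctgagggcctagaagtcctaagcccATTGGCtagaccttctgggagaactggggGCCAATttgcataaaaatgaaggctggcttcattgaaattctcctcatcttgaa
Gpr37l1, chr1:135167682-135167931, minus strand: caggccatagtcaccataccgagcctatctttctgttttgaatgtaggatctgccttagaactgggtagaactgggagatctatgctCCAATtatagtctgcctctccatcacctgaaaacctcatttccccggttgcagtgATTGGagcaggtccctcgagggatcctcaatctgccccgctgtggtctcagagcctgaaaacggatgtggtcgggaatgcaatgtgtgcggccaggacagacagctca
S100b, chr10:76253586-76253835, plus strand: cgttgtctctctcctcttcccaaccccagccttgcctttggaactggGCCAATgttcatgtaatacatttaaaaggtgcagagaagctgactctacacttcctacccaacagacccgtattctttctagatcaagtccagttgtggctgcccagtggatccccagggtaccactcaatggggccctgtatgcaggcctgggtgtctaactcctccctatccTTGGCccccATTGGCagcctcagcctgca

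Of the 7 members with a promoter, 4 held TTGGC (S100b, Ndrg2, Ntsr2 and Acsbg1), and by window these were 5 of 9, since Ndrg2 has 3 windows, against 41.5% of 32851 promoter windows of the same length. CCAAT was found in the windows of 4 members (Aldh1l1, Gpr37l1, S100b and Acsbg1) and of Nfia, 5 of 9 windows, against 33.8% of all windows. The 2 motifs share bases where an A stands before TTGGC, on either strand, as happens in Acsbg1 from bases -83 and -54 and in S100b from bases -203 and -20, counted from the start. No member held the whole palindrome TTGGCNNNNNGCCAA, which was in 0.0365% of windows. A core of SOX sites, ACAAT, with its complement ATTGT, was in the Nfia window only among these 7, against 27.7% of all windows. The Aldh1l1 window lies inside the gene's GENCODE span on chromosome 6 (90486427 to 90600203), so it belongs to one of several annotated starts. The Nfia window, 97581693 to 97581942 on chromosome 4, lies outside that gene's GENCODE span (97772734 to 98118874). These matches describe letters, not bound sites.

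The members spanned a wide range of expression in saline libraries (n = 18 over the 4 saline groups, mean FPKM ± SD). Clu, which encodes the secreted chaperone clusterin, was at 3000 ± 881 FPKM. By its mean over all 35 libraries, saline and LPS, it ranked 17 of 19573 genes, and the ranks that follow are on that mean too. Gpr37l1, a G protein-coupled receptor of astrocytes, followed at 1193 ± 395, Ntsr2, a neurotensin receptor, at 1022 ± 247, and Ndrg2, a cytoplasmic protein of the NDRG family, at 961 ± 237. These 3 ranked 37, 39 and 43. Acsbg1, an acyl-CoA synthetase for long-chain fatty acids, was at 308 ± 114, and Aldh1l1, an enzyme of folate metabolism, at 102 ± 38.9 (rank 355). The calcium-binding protein gene S100b was at 65.2 ± 16.1 (rank 639). Among the transcription factor genes, Sox9 stood at 102 ± 35.9, Nfib at 53.5 ± 10.3 and Nfia at 38.8 ± 9.61 FPKM (rank 1669). The 10 genes together took between 0.793% and 3.2% of all FPKM of a library.

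**Figure D1:**
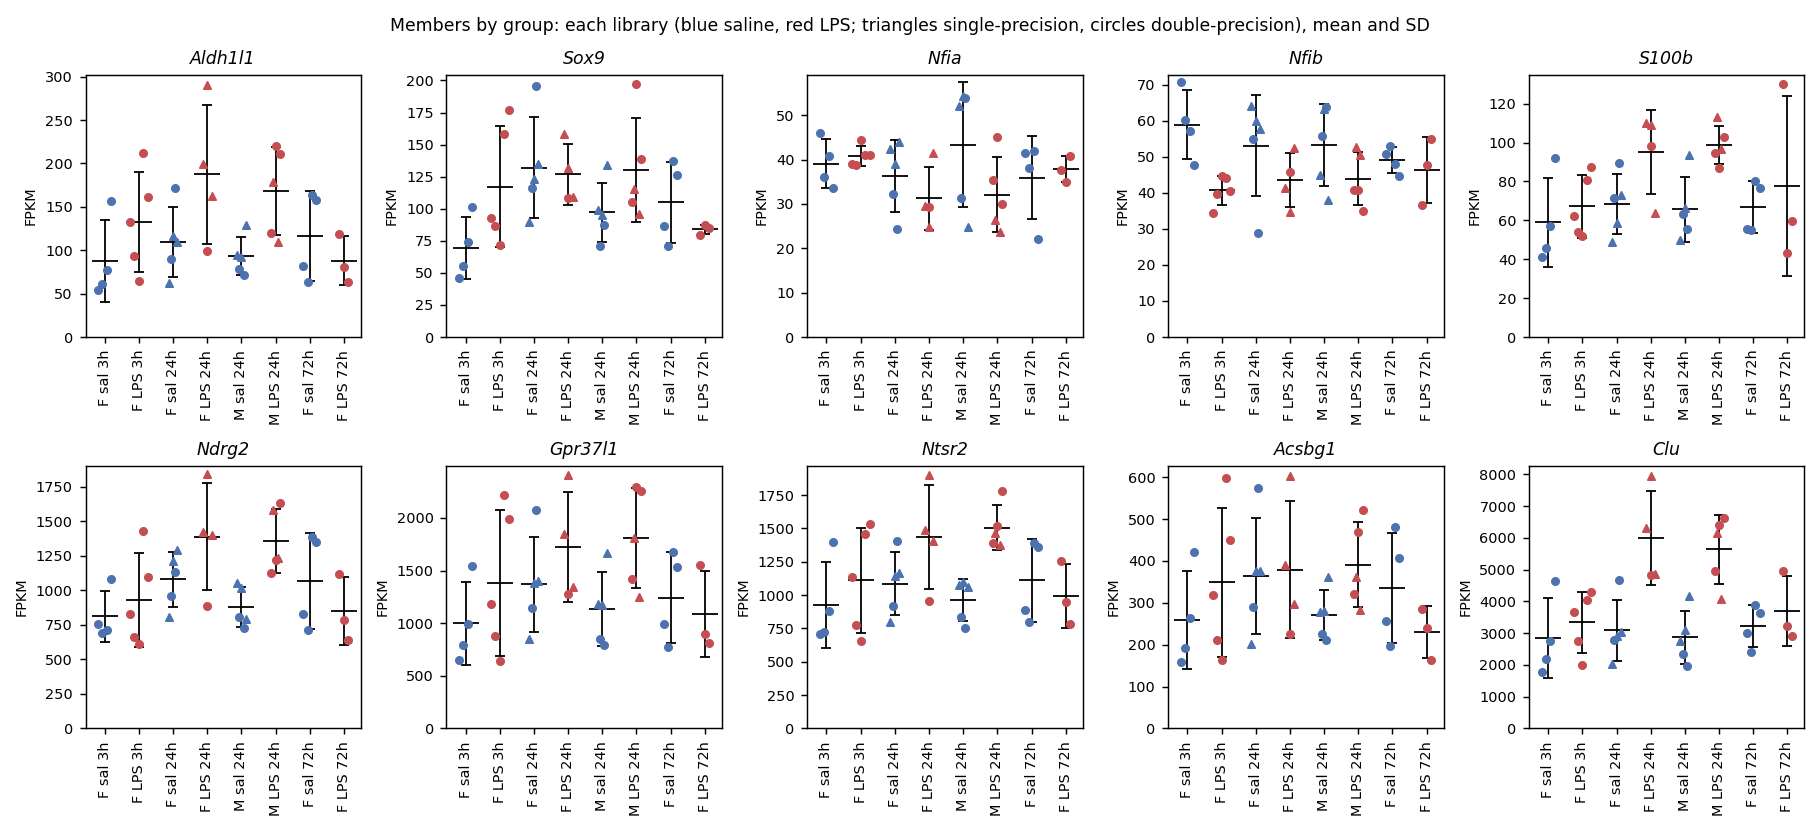
FPKM of each member in every library, by group (F female, M male, sal saline; blue saline, red LPS), with group mean and SD; triangles and circles are the 2 number formats found in the deposited values. For Clu at 24 h, females were at 4825 or more after LPS and 4658 or less after saline, and male groups overlapped between 4073 and 4170.

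Several related genes were at far lower levels per length. Aldh1l2, the mitochondrial relative of Aldh1l1, averaged 2.07 FPKM over all 35 libraries, the oligodendrocyte factor Sox10 2.20, the oligodendrocyte receptor Gpr37 11.5 and Ndrg1 4.18. Other relatives were well expressed: S100a1 averaged 272 FPKM, more than S100b (74.8 over the same libraries), and S100a16 averaged 133. The remaining NFI genes, Nfic and Nfix, averaged 20.7 and 20.2 FPKM, below Nfib at 48.6 and Nfia at 37.2. Strand use in counting is not given in the sources used here, and S100b overlaps Dip2a (8.86 FPKM) on the opposite strand on chromosome 10. Reads in that overlap may not be told apart, and their share was not measured. Aldh1l1, Nfia and Nfib also overlap annotated genes.

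Markers of other cell types were present at lower sums. The 10 members summed to 4320 to 15290 FPKM per library, and no member was below 22.2 FPKM in any library. Summed over each list, 12 microglial markers reached 57.5 to 582 FPKM, 10 endothelial markers 73.2 to 323, 8 oligodendrocyte markers 203 to 2172 and 10 neuronal markers 70.6 to 284. Erythroid markers (5 of 5 measured) summed to 49.9 to 1787 FPKM. The FPKM sum ran from 456417 to 565592 per library, and depth in reads is unknown. Mitochondrially encoded genes made up between 4.87% and 24.4% of a library's sum, and 10 libraries were under 10%. Those were 1 saline library from females at 24 h, 2 from saline females at 72 h, 2 each from LPS females at 3 h and 24 h, and 3 from LPS males. The share was lower after LPS in males, with a median of 7.62% against 18.9% after saline, and in females at 24 h, with 10.1% against 15.1%. In females at 72 h the median was 14.7% after LPS and 11.7% after saline, the other way round, and at 3 h it was 17.8% against 20.8%.

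Clu was the only member that passed the test in an LPS comparison. The test was limma on log2(FPKM + 1) with Benjamini-Hochberg adjustment over 19426 genes, and a gene is called at an adjusted p under 0.05. In males at 24 h the saline libraries held 2754, 3095, 4170, 2347 and 1957 FPKM of Clu, and the LPS libraries 6142, 4073, 4959, 6411 and 6620. The lowest LPS library sat just under the highest saline library, and the other 4 were above all saline libraries. Clu rose by log2 1.0 ± 0.28 (SE; 95% interval 0.43 to 1.57, limma adjusted p = 0.0244), a 2-fold difference between means of 2864 ± 846 and 5641 ± 1090 FPKM (SD, n = 5 each). In this comparison 1 of 10 members was called, beside 8.9% of all genes tested, and it was higher, beside 7.08% of genes called higher.

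Females at 24 h had a Clu difference of like size that narrowly missed the threshold. Saline libraries were at 2012, 2911, 3036, 2796 and 4658 FPKM and LPS libraries at 6303, 7950, 4875 and 4825. All LPS libraries were above all saline libraries, which was so for 3.32% of genes tested. The log2 fold change was 0.98 ± 0.30 (95% interval 0.37 to 1.58, limma adjusted p = 0.0634), and the LPS effect in males differed from that in females by log2 0.02 (95% interval -0.81 to 0.85, adjusted p = 0.995). In the authors' deposited table, made with DESeq2, Clu passed in both sexes, with log2 0.83 (adjusted p = 0.0201) in females and 0.72 (adjusted p = 0.0126) in males.

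At 3 h and 72 h Clu was between 1981 and 4942 FPKM after LPS and between 1787 and 4635 after saline, with overlapping groups. Its log2 fold change was 0.28 (95% interval -0.32 to 0.88) at 3 h and 0.17 (95% interval -0.51 to 0.86) at 72 h, and neither passed limma. The LPS effect at 24 h minus that at 3 h was log2 0.70 (95% interval -0.16 to 1.55), and that at 72 h minus that at 24 h was -0.81 (95% interval -1.72 to 0.11). Neither difference passed, with adjusted p = 0.701 and 0.535, so these data do not separate the times for Clu.

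The Clu call in males depended on the libraries used. It had adjusted p between 0.0501 and 0.0823 without saline replicate 1 or 5 or LPS replicate 4 or 5. The deposited values came in 2 number formats, treated here as a batch in alternative fits and not in the main one. Within the libraries of single precision the difference was log2 0.61 (adjusted p = 0.512), and within those of higher precision 1.47 (adjusted p = 0.0916). The corresponding female values were 1.26 (adjusted p = 0.0700) and 0.42. The last rests on 1 LPS library and is given as a value with no test. In males the mitochondrial share was 16.8% to 23.4% after saline and 4.87% to 16.3% after LPS. These ranges do not overlap, so share and LPS cannot be told apart in males. With the mitochondrial share as a covariate, the male difference was 0.43 (adjusted p = 0.413) and the female one 0.70 (adjusted p = 0.0409). Without the 10 libraries under 10%, it was 0.70 in males (adjusted p = 0.313) and 0.87 in females (adjusted p = 0.317). In bulk libraries a larger share of astrocyte RNA and more Clu per cell cannot be told apart.

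**Figure D2:**
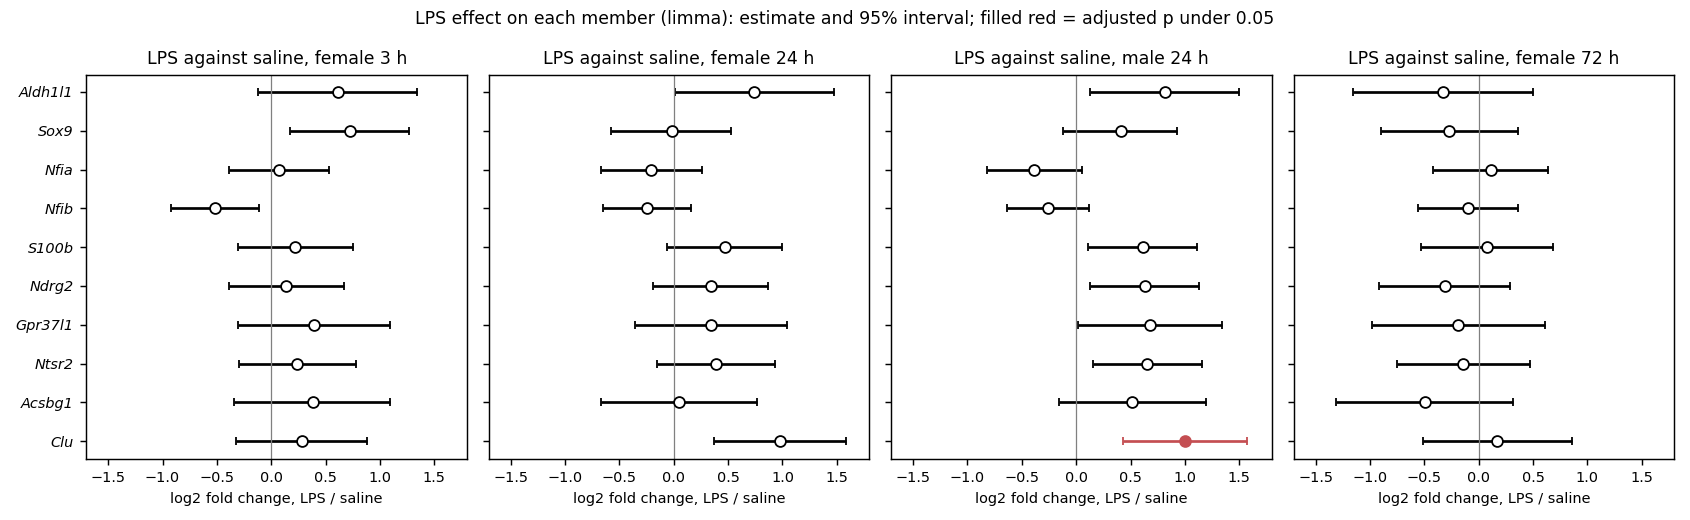
Log2 fold change (LPS over saline, limma) of each member in the 4 comparisons, with 95% intervals; a filled red point has an adjusted p under 0.05. Clu in males at 24 h (log2 1.0) is the single filled point, and Nfia and Nfib lie left of 0 in both sexes at 24 h while Clu, Aldh1l1 and S100b lie right of it.

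The receptor genes and Ndrg2 had higher means after LPS in males without passing the test. Ntsr2 was at 1078, 1095, 1060, 834 and 752 FPKM in male saline libraries and at 1463, 1374, 1390, 1517 and 1784 after LPS. No LPS library fell among the saline ones, and the log2 difference was 0.65 (95% interval 0.15 to 1.16, limma adjusted p = 0.0846). The authors' deposited table gives Ntsr2 0.48 with an adjusted p of 0.0213. Ndrg2 was at 1052, 1018, 792, 804 and 723 FPKM after saline and at 1581, 1232, 1126, 1216 and 1633 after LPS. These groups did not overlap either, with log2 0.63 (95% interval 0.13 to 1.13, adjusted p = 0.0909). Ntsr2 and Ndrg2 were the 2 members whose male groups did not overlap, beside 9.55% of all genes tested that were higher without overlap. Gpr37l1 overlapped between groups, 794 to 1667 FPKM against 1248 to 2292, with log2 0.68 (adjusted p = 0.155).

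Aldh1l1, whose promoter drives the reporter, was not called after LPS at any time. Male saline libraries were at 94.7, 92.7, 129, 78.2 and 71.9 FPKM and male LPS libraries at 179, 110, 120, 220 and 211. Only 2 LPS libraries fell below the highest saline library, and the difference was log2 0.82 (95% interval 0.13 to 1.5, limma adjusted p = 0.108). The authors' deposited table lists log2 0.60 with an adjusted p of 0.0579. In females the log2 difference was 0.61 (95% interval -0.12 to 1.34) at 3 h, 0.74 (0.01 to 1.47) at 24 h and -0.33 (-1.16 to 0.50) at 72 h. Among the 4 LPS libraries of females at 24 h, Aldh1l1 ran from 99.1 to 290 FPKM. With the mitochondrial share, which did not overlap between male saline and LPS libraries, as a covariate, the male value was -0.11 (adjusted p = 0.900). These intervals leave room for a change of more than 2-fold in the reporter's own gene at 24 h.

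Acsbg1 and S100b were not called either. Acsbg1 ran from 210 to 361 FPKM in male saline libraries and from 282 to 522 after LPS (log2 0.51, 95% interval -0.16 to 1.19), and in females at 24 h its means were nearly equal, 363 ± 138 and 379 ± 164. S100b was at 49.7 to 93.4 FPKM in male saline libraries and at 86.8 to 113 after LPS, with 4 of 5 LPS libraries above all saline libraries (log2 0.61, 95% interval 0.11 to 1.11, limma adjusted p = 0.0996). One LPS library of females at 72 h held 130 FPKM of S100b, the highest of all libraries, and the other 2 held 43.1 and 59.4.

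None of the 3 transcription factor genes passed limma in an LPS comparison. Nfib in females at 3 h was at 70.7, 60.2, 57.1 and 47.7 FPKM after saline and at 34.5, 39.6, 44.7, 44.0 and 40.5 after LPS. Every LPS library was below every saline library, which was so for 1.7% of genes tested. The log2 fold change was -0.52 (95% interval -0.92 to -0.11, limma adjusted p = 0.236), and the authors' deposited table lists -0.42 with an adjusted p of 0.278. Sox9, in the same libraries, was at 46.4, 55.7, 74.0 and 101 FPKM after saline and at 92.8, 86.5, 71.7, 158 and 177 after LPS. The groups overlapped, with log2 0.72 (95% interval 0.17 to 1.27, adjusted p = 0.219). Neither passed, in a comparison where no member was called and 2.38% of all genes were called. At an unadjusted p under 0.05 there were 2 members and 12% of all genes.

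Nfia in male saline libraries fell into high and low values, 52.1, 54.4, 24.8, 31.4 and 53.8 FPKM, and was at 26.4, 23.7, 35.5, 45.1 and 29.9 after LPS. The log2 difference was -0.39 (95% interval -0.82 to 0.05, limma adjusted p = 0.218), whereas the authors' deposited table lists -0.73 with an adjusted p of 0.0392. Nfib in males differed by -0.26 (95% interval -0.64 to 0.12). In females at 24 h the differences were -0.21 for Nfia, -0.25 for Nfib and -0.02 for Sox9, and none passed.

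Across the 10 members, limma called 0 in females at 24 h, where 2 (Aldh1l1 and Clu) had an unadjusted p under 0.05 and 3.34% of all genes were called. At an unadjusted p under 0.05 there were 14% of all genes. The authors' deposited table puts 1 member, Clu, under 0.05 there, beside 4.27% of its genes. The median log2 fold change of the members was 0.26 at 3 h in females, 0.34 at 24 h in females and 0.62 at 24 h in males, beside medians of 0.02, 0.05 and 0.18 over all genes. In males 6 members had an unadjusted p under 0.05, and so did 29.8% of all genes. At 72 h the members' median was -0.17 (all genes -0.10), with no member called, beside 0.0772% of all genes. None had an unadjusted p under 0.05, beside 5.38% of all genes. The deposited table puts 3 members, Clu, Ntsr2 and Nfia, under 0.05 in males, beside 19.2% of its genes. It puts no member under 0.05 at 3 h (3.43% of its genes) or at 72 h (0.75%).

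No difference between LPS effects passed limma for any member. That was so for males against females at 24 h, for 24 h against 3 h and for 72 h against 24 h in females. Limma called 0%, 0.71% and 0.345% of all genes there. No member had an unadjusted p under 0.05 in these 3 comparisons either, beside 3.97%, 8.57% and 10.6% of all genes. Between the sexes at 24 h, no member was called after saline (0.0515% of genes called) or after LPS (0.0721%). Again none had an unadjusted p under 0.05, beside 2.39% of all genes after saline and 8.97% after LPS. The members' differences, male minus female, ran from log2 -0.42 for Sox9 to 0.21 for Nfia after saline. After LPS they ran from -0.11 for Aldh1l1 to 0.10 for Acsbg1.

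Sox9 had the largest difference between saline groups among the members. Females 3 h after saline were at 46.4 to 101 FPKM and those 24 h after saline at 89.9, 123, 135, 116 and 196, so 1 of the later libraries lay below the highest early one. The log2 difference was 0.93 (95% interval 0.38 to 1.48, unadjusted p = 0.00163, limma adjusted p = 0.101). It was the largest of the 10 members and the single one with an unadjusted p under 0.05, beside 10.6% of all genes. In this comparison limma called 0.798% of genes. Markers of other cells differed between these saline groups: limma called 6 of 10 endothelial markers, 3 of 7 of pericytes and smooth muscle and 1 of 12 of microglia lower at 24 h. Their medians were log2 -1.47, -1.26 and -1.30, and summed endothelial markers ran from 217 to 323 FPKM at 3 h and from 73.2 to 170 at 24 h. Also called lower were 1 of 8 oligodendrocyte and 1 of 10 neuronal markers, with medians of -0.84 and -0.76. No marker of oligodendrocyte precursors, ependymal cells, erythroid cells, blood leukocytes, border macrophages or fibroblasts was called. The part of other cells in the Sox9 difference was not tested. From 24 h to 72 h after saline no member had an unadjusted p under 0.05, beside 15.6% of all genes. Limma called no member and 3.04% of genes there. Markers of other cells differed here too. At 72 h limma called higher 10 of 12 microglial, 7 of 10 endothelial, 5 of 8 oligodendrocyte and 4 of 7 pericyte and smooth muscle markers. Also called higher were 4 of 10 neuronal, 3 of 7 oligodendrocyte precursor and 3 of 5 erythroid markers. None was called for ependymal cells, blood leukocytes, border macrophages or fibroblasts. The saline group at 3 h had the lowest mean of any group for 7 members, the exceptions being Nfia, Nfib and Acsbg1. For each member, all 7 pairs of groups next to each other in order of mean overlapped in mean ± SD.

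The order of groups differed among members. Clu averaged 5988 ± 1480 FPKM in LPS females at 24 h and 5641 ± 1090 in LPS males, then 3688 ± 1100 in LPS females at 72 h, 3342 ± 956 in those at 3 h, and 2834 to 3234 in the 4 saline groups. Aldh1l1, Ndrg2, Gpr37l1, Ntsr2, S100b and Acsbg1 also had the LPS groups at 24 h in the first 2 places. Nfib ran the other way, with the 4 saline groups (49.1 to 58.9 FPKM) above the 4 LPS groups (40.7 to 46.4). Nfia was lowest in the LPS groups at 24 h, 31.3 ± 7.15 in females and 32.1 ± 8.49 in males, and highest in male saline, 43.3 ± 14.1.

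Within groups, 8 members varied together from library to library, and the NFI genes varied inversely to them. With group means removed, the 28 pairs among Aldh1l1, Sox9, S100b, Ndrg2, Gpr37l1, Ntsr2, Acsbg1 and Clu had Pearson correlations of 0.567 to 0.976 (median 0.852) over 35 libraries. The closest pair was Aldh1l1 and Acsbg1, 2 enzymes. The 16 pairs of an NFI gene with one of these ran from -0.727 to -0.134 (median -0.428), and Nfia with Nfib gave 0.515. All points share their library and its scaling, so these values describe the libraries and carry no p.

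**Figure D3:**
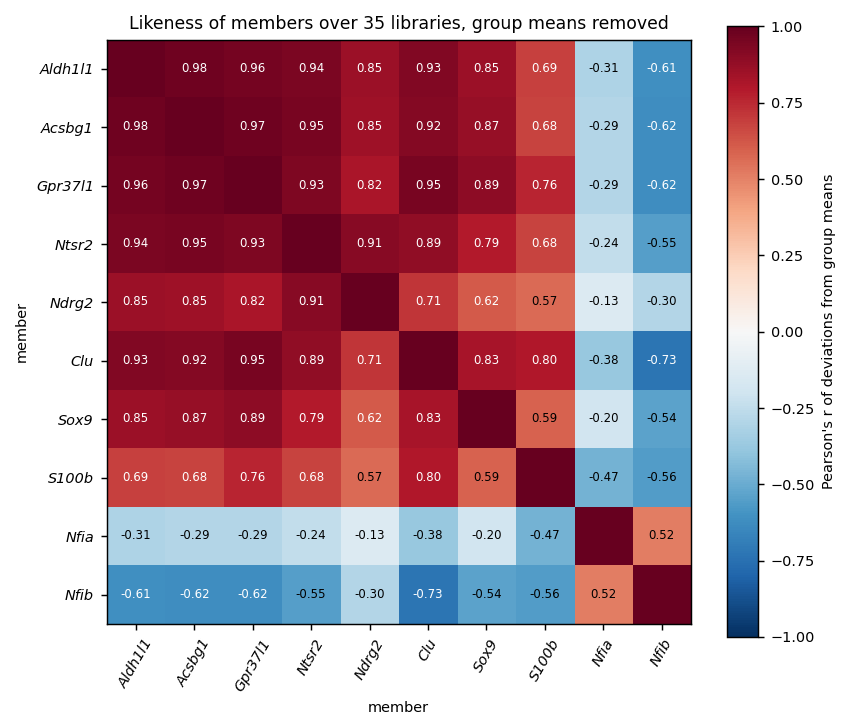
Pearson correlation of every pair of members over 35 libraries after each group's mean of log2(FPKM + 1) was removed; red is positive and blue negative. The block of 8 members is red throughout (0.567 or more), and the Nfia and Nfib rows are blue against it.

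The same 8 members moved inversely to the mitochondrial share. In a limma fit with groups held apart, chosen after the data were seen, 8 members were higher in libraries of lower share. Per 2-fold fall in share, the slope was log2 0.77 ± 0.08 (SE) for Aldh1l1, 0.74 ± 0.08 for Acsbg1, 0.69 ± 0.08 for Gpr37l1 and 0.52 ± 0.07 for Sox9. It was 0.48 for Ntsr2 and Clu, 0.47 for Ndrg2 and 0.32 for S100b. All 8 had limma adjusted p-values between 1.52e-08 and 0.00677. Nfib went down by 0.19 ± 0.08 (slope -0.19, adjusted p = 0.0398), and Nfia had -0.08 (adjusted p = 0.487). This count of 8 higher and 1 lower stands beside 32.3% of genes higher and 15.9% lower, 48.2% in all. The slope was not particular to the members. Of 33 other astrocyte identity genes 22 were higher and 2 lower, and of 15 relatives of the members 10 were higher and 0 lower. Of 23 other astrocyte and gliogenic transcription factors 11 were higher and 2 lower. The relatives and the transcription factors share Sox8, Nfic and Nfix. Among markers of other cells, 4 of 7 for oligodendrocyte precursors, 3 of 7 for pericytes and smooth muscle and 3 of 8 for oligodendrocytes were higher. So were 2 of 4 fibroblast, 2 of 6 ependymal, 2 of 12 microglial, 2 of 10 neuronal and 1 of 10 endothelial markers. Pericytes and smooth muscle, oligodendrocytes, microglia and neurons each had 1 marker lower. The members' counts were the same after leaving mitochondrial genes out of the scaling. With the share as a covariate, the male LPS differences were log2 0.08 for Ntsr2, 0.07 for Ndrg2, 0.22 for S100b and -0.15 for Gpr37l1, and none of these passed. The share did not overlap between male saline and LPS libraries, so share and LPS cannot be told apart there.

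**Figure D4:**
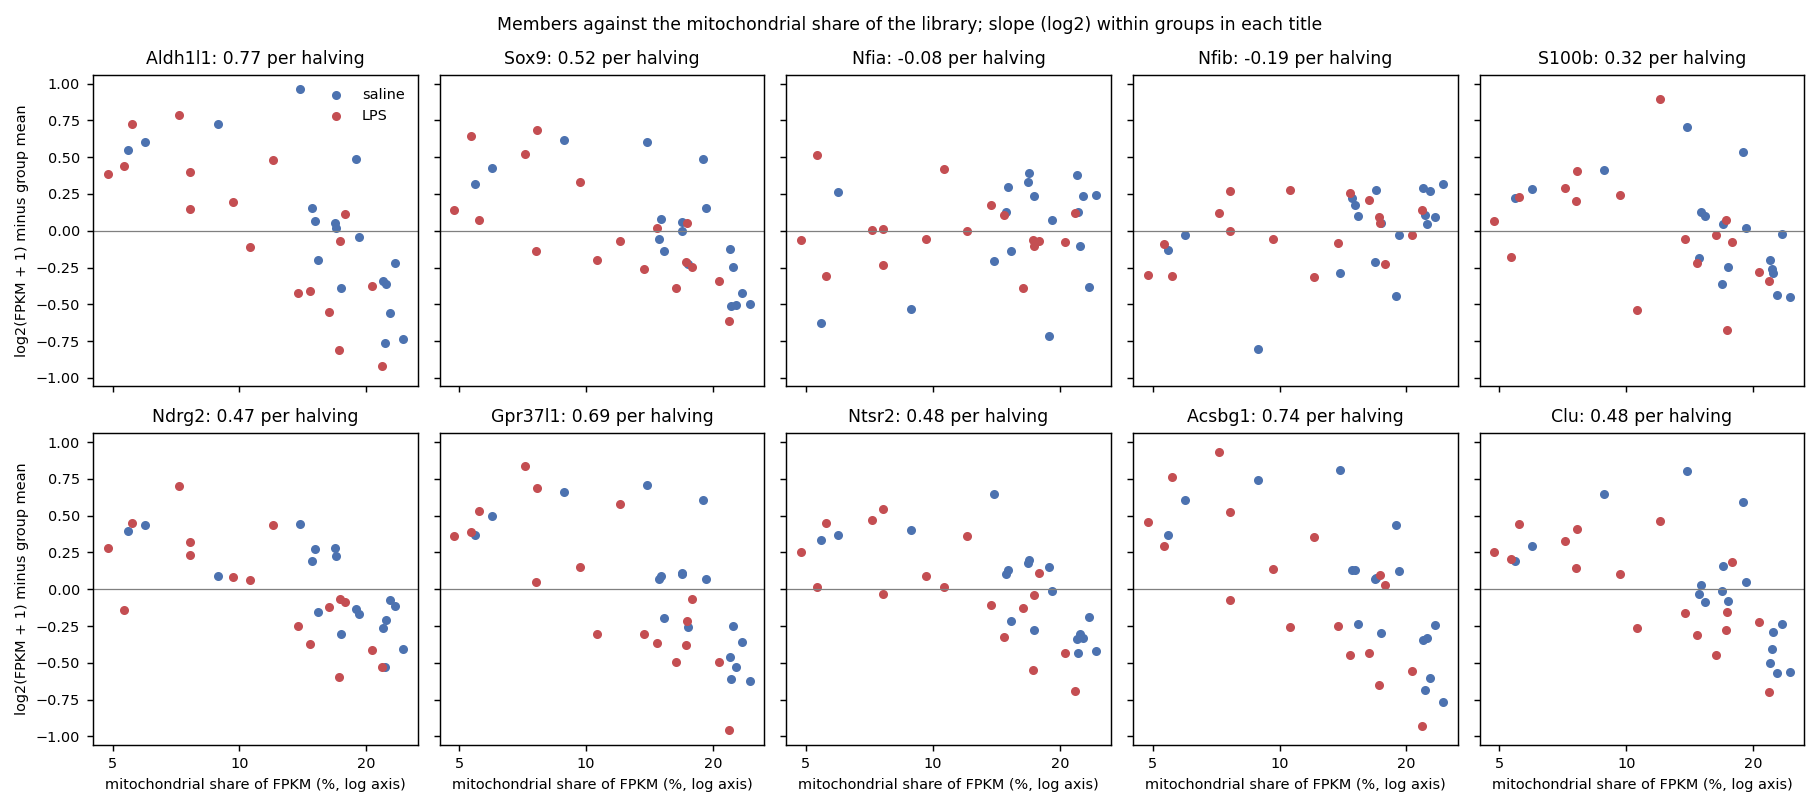
Each member's log2(FPKM + 1) minus its group mean against the mitochondrial share of the library (percent of FPKM, log axis), blue saline and red LPS, with the limma slope per 2-fold fall in the title. Aldh1l1 and Acsbg1 fall by 0.77 and 0.74 on the log2 scale for each 2-fold higher share, and Nfia shows no slope that passed.

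The spread within groups differed by gene. The residual SD on the log2 scale was largest for Aldh1l1 (0.564), Acsbg1 (0.548) and Gpr37l1 (0.520), and smallest for Nfib (0.279) and Nfia (0.333). Aldh1l1 was more variable than 83.4% of 668 genes of like level, and Nfib more variable than 15.2% of 2466. Over all libraries Aldh1l1 spanned a 5.38-fold range and Clu 4.45-fold, against 2.45-fold for both Nfia and Nfib.

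The genes whose levels over the 35 libraries were most like each member's were found among 5742 genes of mean FPKM 10 or more. For Aldh1l1 they were Pdk2, a pyruvate dehydrogenase kinase (r = 0.967), Wdr1, an actin disassembly factor (0.963), and Pfkm, a phosphofructokinase (0.955). Ntsr2 was closest to Pfkm (0.967), Slc27a1, a fatty acid transporter (0.959), and Pcx, pyruvate carboxylase (0.952). Ndrg2 was closest to Cyp4f15 (0.963), Plcd1 (0.920) and Pfkm (0.918). Gpr37l1 was most like Smpd1, acid sphingomyelinase (0.969), Hepacam, an astrocyte adhesion molecule (0.968), and Gdf1 (0.968). Acsbg1 was most like the cation-chloride cotransporter gene Slc12a4 (0.957), Aldh4a1, an enzyme of proline breakdown (0.954), and Pygb, brain glycogen phosphorylase (0.954).

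Clu was nearest to Tmbim6 (0.961), Lgi4 (0.955) and Tmem176a (0.940), and S100b to Cox6a1, a cytochrome oxidase subunit (0.922), Ddt (0.904) and Fxyd1 (0.901). Sox9 was nearest to Nrarp, a Notch target (0.924), Kctd5 (0.909) and Cbr3 (0.907). The NFI genes had less close matches: Srpk2 (0.844), Ssbp2 (0.825) and Ccnt2 (0.814) for Nfib, and Polr3f (0.710), Myo6 (0.708) and Cdc42bpa (0.672) for Nfia. These are descriptions over libraries that share group, scaling and mitochondrial share.

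Among 33 other identity genes of astrocytes, Gfap was called in 3 of the 4 LPS comparisons. It rose by log2 1.55 ± 0.24 at 3 h, 2.58 ± 0.24 in females at 24 h and 1.97 ± 0.23 in males (limma adjusted p = 6.1e-05, 6.12e-09 and 6.64e-07). At 3 h it was the single one called, and at 72 h none was. Each time 2 genes had an unadjusted p under 0.05, beside 12% and 5.38% of all genes. In females at 24 h, Gjb6, the gap junction gene of connexin 30, also rose (0.88 ± 0.26, adjusted p = 0.0491) and Dio2, the deiodinase that activates thyroid hormone, fell (-0.80 ± 0.23, adjusted p = 0.0477). In males 5 of 33 rose and 1 fell: Gfap, Prodh, the first enzyme of proline breakdown (1.26 ± 0.31, adjusted p = 0.0113), Aldoc, Cbs and Cldn10 rose, and Dio2 fell (-1.21 ± 0.22, adjusted p = 0.000574). The list's medians were 0.20, 0.14, 0.36 and -0.10 in females at 3 h, females at 24 h, males and females at 72 h, beside all-gene medians of 0.02, 0.05, 0.18 and -0.10.

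None of 23 other astrocyte and gliogenic transcription factors, among them Sox2, Nfix, Id4 and Hes5, was called by limma in any LPS comparison. At an unadjusted p under 0.05 there were 4 at 3 h, 8 in females at 24 h, 5 in males and 1 at 72 h, beside 12%, 14%, 29.8% and 5.38% of all genes. The list's medians were -0.04, -0.23, 0.00 and -0.11. Of 15 measured relatives of the members, 3 calcium-binding genes rose in males: S100a13 (1.15 ± 0.28, adjusted p = 0.0112), S100a6 (0.96 ± 0.29, adjusted p = 0.0376) and S100a1 (0.92 ± 0.27, adjusted p = 0.0305). None of the 15 was called in females, with 3 at an unadjusted p under 0.05 at 24 h and 0 at 3 h and 72 h.

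Markers of other cell types were set beside the Clu comparisons at 24 h. In females at 24 h the 12 microglial markers summed to 57.5 to 189 FPKM after saline and 61.7 to 112 after LPS, and in males to 71.2 to 187 and 86.9 to 198. Endothelial markers (10 of 10 measured) summed to 73.2 to 170 and 142 to 179 FPKM in females, and to 100 to 168 and 147 to 285 in males. Oligodendrocyte markers (8 of 8) reached 333 to 1011 FPKM in male saline libraries and 583 to 1396 after LPS. Blood leukocyte markers (3 of 7 measured) summed to 0 to 5.08 FPKM in male saline libraries and 6.42 to 31.5 after LPS, and to 0 to 2.25 and 7.59 to 15.3 in females. Limma called 2 of 3 leukocyte markers higher in each sex. In males it also called 2 endothelial, 2 neuronal, 1 oligodendrocyte, 1 fibroblast and 1 microglial marker higher and 2 microglial markers lower. In females it called 1 endothelial and 1 fibroblast marker higher, and 1 microglial marker and 2 of 5 erythroid markers lower. Of the leukocyte markers, S100a9 was listed at 0 in every saline library of females at 24 h. Their part in the Clu difference was not tested.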

How the data were processed

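The authors deposited FPKM per gene and library, made with HISAT2 and StringTie on mm10, and DESeq2 log2 fold changes with adjusted p-values, per the submitters' processing notes and the file headers; tool versions are not given in the sources used here. Of 19584 entries, 11 repeated an identifier and the first was kept. Depth in reads is unknown, so no counting interval is given. Groups came from the labels, which describe SMART-seq HT and Nextera XT libraries on a NovaSeq.

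Genes at 1 FPKM or more in at least 3 libraries (19426) were fitted as log2(FPKM + 1) with limma 3.58.1 (R 4.3.3), 1 coefficient per group over all 35 libraries, eBayes with trend, two-sided, adjusted within each of 11 contrasts. The pseudocount understates changes of low genes. The fit was tested on simulated data with noise drawn independently for each gene. That test does not cover variation that genes share across libraries. Values of 11 libraries, all from 24 h, carry single precision and the other 24 do not (tolerance 1e-07, values over 100). The main fit had no term for this difference, which was treated as a batch in alternative fits only. Library pairs within groups correlated at 0.863 to 0.972 across genes, and no 2 libraries were identical.

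The members and gene lists were chosen with earlier results of these data known. Always named were the members, plus the 3 most changed called genes of the lists of identity genes and transcription factors per LPS comparison, relatives of members, and the 3 genes most like each member, leaving out predicted, clone and pseudogene symbols. Aldoc, Cbs and Cldn10 were named after their values were seen. Alternatives were other scalings, pseudocount, filters, library weights, a replicate block, number format and left-out libraries. Positions are from GENCODE M21 and promoters from RefSeq (GRCm38.p6); protein sequences were not used here.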

Additional observations from a re-analysis of the deposited data

Results flagged for a closer look

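Each of the 10 members was looked at in each of the 7 groups of 4 or 5 libraries, 70 sets that share libraries. In 2 sets a library was far from the others, and chance alone gives about 1 in 20. Nfib in the fifth saline library of females at 24 h was at 28.9 FPKM, with the nearest of the other 4 at 55.0. That library also had the lowest mitochondrial share of its group and the highest values for Aldh1l1, Sox9, S100b, Gpr37l1, Ntsr2, Acsbg1 and Clu. Ndrg2 in the fourth saline library of females at 3 h was at 1084 FPKM, with the nearest of the other 3 at 757. That library had the highest values of its group for Aldh1l1, Sox9, S100b, Gpr37l1, Ntsr2, Acsbg1 and Clu as well, and the lowest mitochondrial share.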

How the results depend on the processing

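The labels give the groups replicate numbers and state no pairing. Of 16 pairs of same-numbered libraries 6 correlated above 0.1 (range -0.375 to 0.319). With no differently numbered pairs set beside them, these values do not settle whether the numbers pair libraries. With the replicate block, the members called stayed at 0, 0, 1 and 0 for females at 3 h, females at 24 h, males and females at 72 h, and Sox9 in females at 24 h turned to 0.06.

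Leaving out 1 library at a time, members called ran from 0 to 1 in females at 24 h and from 0 to 1 in males. Clu was called in females without saline replicate 5 or LPS replicate 4. The share of all genes called in those fits is not given here. The log2 fold changes that changed sign ran from -0.03 to 0.29 for Ndrg2 in females at 3 h, from -0.15 to 0.13 for Sox9 and -0.20 to 0.27 for Acsbg1 in females at 24 h. At 72 h they ran from -0.10 to 0.20 for Nfia, -0.23 to 0.06 for Nfib, -0.37 to 0.41 for S100b, -0.32 to 0.02 for Ntsr2 and -0.06 to 0.33 for Clu.

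Library weights moved most counts: 2 members were called in females at 3 h (Sox9, Nfib), 3 in females at 24 h (Aldh1l1, S100b, Clu), 7 in males (6 higher, and Nfia lower) and 3, all lower, at 72 h (Aldh1l1, Ndrg2, Acsbg1). They also called 7 for the LPS effect at 72 h against 24 h and 1 (Sox9) for saline at 24 h against 3 h. Weights called 6.19%, 11.3%, 24.7% and 18.6% of all genes in the LPS comparisons in the order given, and 30.1% and 5.79% in the other 2. Signs turned for Sox9 in females at 24 h (0.15) and at 72 h for Nfib (0.06), S100b (-0.34) and Clu (-0.15). A filter at 5 FPKM called 1 (Clu) in females at 24 h, and a fit on the male groups alone called 3 (Aldh1l1, S100b, Clu). The share of all genes called with that filter is not given here. Quantile scaling turned Nfia in females at 3 h (-0.01) and Clu at 72 h (-0.31), and scaling without mitochondrial genes turned Acsbg1 in females at 24 h (-0.02). The all-gene median in males was 0.29 after rescaling all libraries to one sum and 0.02 after quantile scaling, against 0.18.

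Males had 0 members called within either number format. Single-precision libraries gave Sox9 0.20 in females at 24 h, and in males Sox9 -0.04 and Nfib 0.11. The others, in females at 24 h, hold 1 LPS library, so the following are values with no test: Aldh1l1 -0.33, Nfia 0.07, Nfib 0.20, Ndrg2 -0.23, Gpr37l1 -0.27, Ntsr2 -0.25 and Acsbg1 -0.85.

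With the mitochondrial share as covariate, 1 member (Clu) was called in females at 24 h and 0 in males. In each saline time comparison 1 (Sox9) was called, higher at 24 h than at 3 h and lower at 72 h than at 24 h. For females at 24 h and the saline comparisons, the share of all genes called with the covariate is not given here. These calls therefore have no background beside them. Signs turned at 3 h for Ndrg2 (-0.10) and Ntsr2 (-0.01), in females at 24 h for Gpr37l1 (-0.07) and Acsbg1 (-0.38), in males for Aldh1l1 (-0.11), Sox9 (-0.21), Gpr37l1 (-0.15) and Acsbg1 (-0.36), and at 72 h for Aldh1l1 (0.02), Gpr37l1 (0.13) and Ntsr2 (0.08). Without the 10 libraries of low share, 0 were called in males. Signs then turned at 3 h for S100b (-0.01), Ndrg2 (-0.20), Gpr37l1 (-0.12), Ntsr2 (-0.10) and Acsbg1 (-0.11), in females at 24 h for Acsbg1 (-0.21), and at 72 h for Aldh1l1 (0.24), Sox9 (0.10), Nfia (-0.07), Ndrg2 (0.10), Gpr37l1 (0.25) and Ntsr2 (0.21). None of the values that changed sign had passed the test. The cause of these shifts was not tested. In males the share did not overlap between saline and LPS libraries, so share and LPS cannot be told apart there. Both settings on the mitochondrial share were chosen after the data were seen. The counts of genes called in males, 1729, became 317 with the covariate, 200 without those libraries, 4805 with weights and 2769 on the male groups alone. Read depth, which would limit low genes, is unknown, and the groups of 3 to 5 libraries leave wide intervals for single members.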
